A study of Mus musculus with 4 samples.

Results

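Transcripts of 10 genes of the MHC class I pathway and the immunoproteasome were measured in activated T cells that lacked ceramide synthase 6 and in wild type cells, at 8 and 2 months of age. The genes are Nlrc5, H2-K1, H2-D1, B2m, Tap1, Tap2, Tapbp, Psmb8, Psmb9 and Psmb10. They were taken by gene name from the 35275 genes of the deposited table, and all 10 were found. Ceramide synthase 6 (Cers6) is one of the enzymes that make ceramide, a lipid of cell membranes, and by its title the series is about aging and ceramide. The 4 groups are Cers6 knockout (KO) at 8 months, KO at 2 months, wild type (WT) at 8 months and WT at 2 months, all of strain C57BL/6. Every library holds total RNA of splenic T cells kept for 3 days with antibodies to CD3 and CD28 and with IL-2, so no group of resting cells was analysed here. Each group has 1 library. The labels do not say how the knockout was made or how many mice gave RNA to a library. The series text speaks of duplicate samples.

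MHC class I molecules show peptides from inside the cell to CD8 T cells. The proteasome cuts proteins into peptides, the transporter TAP carries them into the endoplasmic reticulum, and tapasin holds the empty class I molecule next to TAP until a peptide is loaded. In interferon-exposed cells and in lymphocytes, 3 catalytic subunits of the proteasome are replaced by the immunoproteasome subunits Psmb8, Psmb9 and Psmb10. NLRC5 is the transactivator of many of these genes and acts at a conserved promoter module of class I genes.

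The libraries held 18145555 to 24239344 counts. Cers6 had 3.38 and 9.17 CPM (the count relative to library size, scaled with TMM factors) in KO cells at 8 and 2 months, against 32.0 and 13.1 CPM in WT cells at 8 and 2 months. It was lower in KO cells at both ages, and reads remained in both KO libraries. Both WT libraries stand apart in some way. In the WT library at 8 months, 98.6% of the counts of T cell receptor beta variable segments came from Trbv14, against 5.12% to 7.4% in the other libraries. Xist, the transcript of the inactive X chromosome, had 440.5 CPM in the WT library at 2 months and at most 0.171 CPM in the others. Contrasts that use that library, KO over WT at 2 months and 8 over 2 months in WT, thus also differ in Xist. KO over WT at 8 months and 8 over 2 months in WT use the WT library at 8 months and thus also differ in the share of Trbv14. Cd4 had 24.6 CPM in the WT library at 8 months, against 201.7 CPM in KO cells at 8 months and 114.7 CPM in WT cells at 2 months. The part of these differences in the results below was not tested. The 8 T cell markers summed to 1743 and 2278 CPM in KO cells at 8 and 2 months, against 1904 and 2239 CPM in WT cells at 8 and 2 months. The 7 B cell markers summed to 1212 and 1921 CPM in KO cells at 8 and 2 months, against 3251 and 2228 CPM in WT cells at 8 and 2 months, with none of the 7 at 0. The markers of neutrophils summed to 4.49 and 0.116 CPM in KO cells at 8 and 2 months, against 102 and 1.31 CPM in WT cells at 8 and 2 months. The edgeR test called 2 of them lower in KO, S100a8 and S100a9, which are 2 of the 4 genes called for genotype in all. For age it called 3 neutrophil markers, 2 of monocytes and macrophages, 1 of plasma cells and 1 of mast cells and basophils, all higher at 8 months. For monocytes and macrophages the sums were 34.5 and 20.6 CPM in KO cells at 8 and 2 months, against 116 and 30.5 CPM in WT cells at 8 and 2 months. Markers of NK cells, dendritic cells, mast cells and basophils, erythroid cells and platelets summed to at most 50.5 CPM per list in any library. Those of plasma cells summed to 197.1 and 121.8 CPM in KO cells at 8 and 2 months, against 325.7 and 135.2 CPM in WT cells at 8 and 2 months. B cells and myeloid cells express class I genes too, so these values stand beside every class I result below, and their part in those results was not tested. In bulk RNA, fewer cells of a type and less RNA per cell cannot be told apart.

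The 10 genes were abundant. Together they took 0.987% and 0.879% of all counts in KO cells at 8 and 2 months, against 1.01% and 0.987% in WT cells at 8 and 2 months. Per gene length, B2m ranked first, then H2-K1 and then H2-D1 among them in all 4 libraries. Their lowest FPKM (deposited counts relative to gene length and library total) was 961, and the highest value among the other 7 genes was 201. The genes lie on 3 chromosomes of GRCm38. Of these, 7 are on chromosome 17, Nlrc5 and Psmb10 are on chromosome 8, and B2m is on chromosome 2. Psmb9, Tap1, Psmb8 and Tap2 follow each other within 34334 bases, at chr17:34181988-34216321.

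Promoters of 4 of the genes are shown because class I promoters carry a conserved module of X and Y boxes through which such regulators act. Each window is from RefSeq (GRCm38.p6), runs 5′ to 3′ on the gene's own strand, and holds 250 bases before and 50 after the transcript start. Capitals mark matches on either strand to the following letters. GAANNGAAA is a form of the element of interferon regulatory factors, and GGG and CCC with 5 bases between is kappa B. TGACG is the core of a cyclic AMP response element, in the X part of the module, and CCAAT is the Y box. H2-K1 is at chr17:34000298-34000597 (minus strand), H2-D1 at chr17:35262844-35263143 (plus), B2m at chr2:122147437-122147736 (plus) and Tap1 at chr17:34187306-34187605 (plus).
H2-K1: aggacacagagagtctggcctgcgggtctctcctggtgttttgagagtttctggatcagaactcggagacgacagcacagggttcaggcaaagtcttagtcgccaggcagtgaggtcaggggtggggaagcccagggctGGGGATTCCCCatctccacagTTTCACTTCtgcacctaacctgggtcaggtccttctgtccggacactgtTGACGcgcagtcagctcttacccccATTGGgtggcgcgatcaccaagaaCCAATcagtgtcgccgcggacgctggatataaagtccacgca
H2-D1: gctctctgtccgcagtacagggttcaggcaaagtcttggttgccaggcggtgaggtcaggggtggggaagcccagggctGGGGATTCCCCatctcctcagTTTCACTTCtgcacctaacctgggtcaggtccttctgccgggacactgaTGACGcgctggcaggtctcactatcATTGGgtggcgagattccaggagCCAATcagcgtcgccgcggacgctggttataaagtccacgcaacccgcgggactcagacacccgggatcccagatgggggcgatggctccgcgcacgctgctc
B2m: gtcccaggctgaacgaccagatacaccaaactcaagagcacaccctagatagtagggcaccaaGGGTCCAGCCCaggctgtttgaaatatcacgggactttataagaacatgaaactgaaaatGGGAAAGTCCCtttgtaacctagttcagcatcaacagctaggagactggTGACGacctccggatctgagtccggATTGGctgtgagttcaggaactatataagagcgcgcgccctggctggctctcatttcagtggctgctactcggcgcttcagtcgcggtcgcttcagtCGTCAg
Tap1: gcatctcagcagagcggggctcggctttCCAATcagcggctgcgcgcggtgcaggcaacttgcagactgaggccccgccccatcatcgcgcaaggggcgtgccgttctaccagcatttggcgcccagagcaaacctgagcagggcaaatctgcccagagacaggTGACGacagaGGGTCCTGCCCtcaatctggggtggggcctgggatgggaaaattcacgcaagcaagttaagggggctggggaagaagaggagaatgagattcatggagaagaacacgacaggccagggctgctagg
The windows of H2-K1 and H2-D1 hold the same matches in the same order, namely 1 kappa B element, 1 interferon regulatory factor element, 1 TGACG and 2 CCAAT. Over 239 aligned bases they are 88.3% identical. B2m holds 2 kappa B elements, 2 TGACG and 1 CCAAT, and no match to GAANNGAAA as written. It does hold gaaactgaaa, a longer stretch of the same kind that these letters miss and that stays in lower case. Tap1 and Psmb9 are transcribed away from each other from a shared stretch, with 275 bases common to both windows, and hold 1 kappa B element, 1 TGACG and 1 CCAAT. Matches are to letters only. In Tap1 the CCAAT lies apart from and before the TGACG, and the second TGACG match of B2m lies after the transcript start. Among 27025 promoters of the same length, GAANNGAAA was found in 7.56%, the kappa B element in 13.8%, TGACG in 21%, CCAAT in 37.9%, and TGACG together with CCAAT in 8.05%. Windows were found for 8 of the 10 genes. They follow RefSeq transcript starts, which can differ from the gene bounds of the deposited table. For H2-D1, Tapbp, Psmb8 and Psmb9 the whole window lies inside those bounds. That of Tapbp begins at 33919228, where the gene begins at 33915899. The Tapbp window held 2 CCAAT and the Psmb8 window 1 match to TTCNNNGAA, the gamma-activated site, found in 8.47% of promoters. The Psmb10 window held none of these motifs.

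At 8 months most of the 10 transcripts were lower in KO than in WT cells, while that of Nlrc5, a transactivator of many of these genes, was higher. The counts were 8 of 10 genes lower, beside 50.3% of 12133 genes (those that reached 2 CPM in a library), and 2 of 10 higher. The median log2 fold was -0.33, against -0.0047 over all genes. Only Nlrc5 was at 2-fold or more higher, as were 10.4% of all genes, and only Psmb10 was at 2-fold or more lower, as were 6.47%. Scaling by library size alone moves the median of all genes in this contrast to 0.24 and that of the 10 genes to -0.08. With offsets that remove the trend of the folds with gene length and GC content, 7 of the 10 genes are lower and their median is -0.053. These contrasts compare single libraries and have no replicate check. Intervals below are exact at 95% and cover counting error only.

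**Figure D1:**
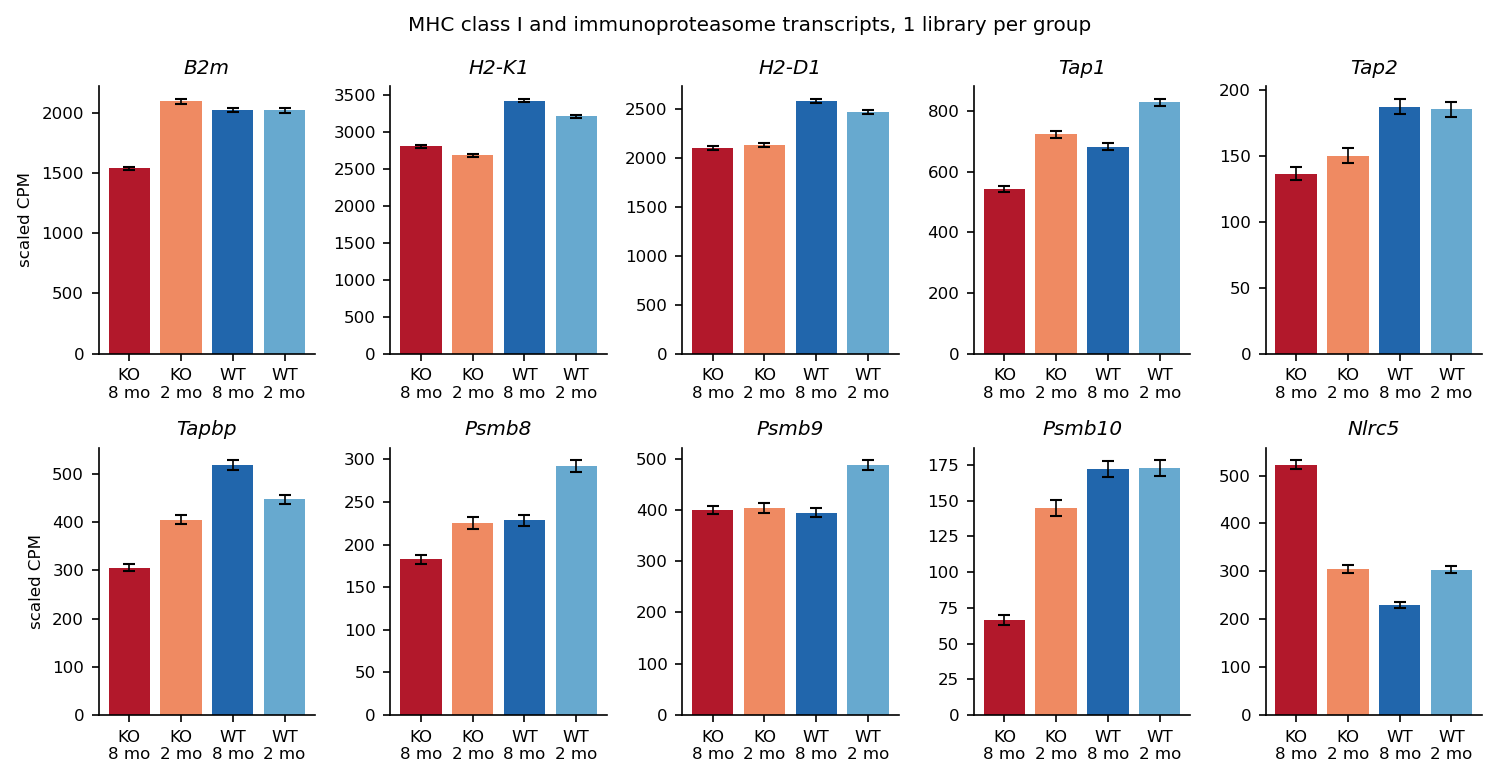
Scaled CPM (vertical axes, each from 0) of the 10 genes in the KO libraries at 8 and 2 months (dark and light red) and the WT libraries at 8 and 2 months (dark and light blue). Bars are single libraries and error bars are 95% counting intervals. Psmb10 is lowest at 66.3 CPM and Nlrc5 highest at 522.6 CPM in KO cells at 8 months.

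Nlrc5 (ENSMUSG00000074151, chr8:94472763-94527272, plus strand) encodes the class I transactivator. It measured 522.6 and 304 CPM in KO cells at 8 and 2 months, against 229.8 and 304 CPM in WT cells at 8 and 2 months. The KO library at 8 months was highest, the WT library at 8 months lowest, and the 2-month libraries differed by less than counting error. The log2 fold of KO over WT was 1.19 at 8 months (interval 1.14 to 1.23), a 2.27-fold difference, and 0.0029 at 2 months (-0.049 to 0.055). Between ages, the log2 fold of 8 over 2 months was 0.78 in KO (0.73 to 0.83) and -0.40 in WT (-0.46 to -0.35). The age contrasts each share a library with the genotype contrasts, so these 4 values are not independent of each other. Nlrc5 is also the longest of the 10 genes, with 6945 bases in the deposited table. The 2191 genes of 5000 bases or more had median log2 folds of 0.33 and 0.22 at 8 and 2 months. With the length and GC offsets, the log2 fold of Nlrc5 at 8 months was 0.92.

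H2-K1 (ENSMUSG00000061232, chr17:33996017-34000333, minus strand) and H2-D1 (ENSMUSG00000073411, chr17:35262730-35267499, plus strand) encode the classical class I heavy chains of this strain. H2-K1 measured 2805 and 2682 CPM in KO cells at 8 and 2 months, against 3422 and 3209 CPM in WT cells at 8 and 2 months. H2-D1 measured 2098 and 2128 CPM in KO cells at 8 and 2 months, against 2582 and 2469 CPM in WT cells at 8 and 2 months. For both genes both KO libraries lay below both WT libraries. This held for 6 of the 10 genes (H2-K1, H2-D1, Tap2, Tapbp, Psmb8 and Psmb10), beside 21.3% of all 12133 genes. With the length and GC offsets, KO over WT turned above 0 for H2-K1 at 8 months and for Tapbp at 2 months (0.0012). It stayed below 0 for the rest of the 6 at both ages. KO over WT gave log2 folds of -0.29 and -0.26 for H2-K1 at 8 and 2 months, and of -0.30 and -0.21 for H2-D1. The difference by age was small, with log2 folds of 8 over 2 months from -0.021 to 0.093. The heavy chains are near-identical in part, with 8.79% of the 50-base stretches of H2-K1 and 14.3% of those of H2-D1 also present in transcripts of other genes, so reads may be split between them. With the same offsets, the log2 folds at 8 months were 0.0020 for H2-K1 and -0.077 for H2-D1.

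B2m (ENSMUSG00000060802, chr2:122147686-122153083, plus strand) encodes beta-2 microglobulin, the light chain of all class I molecules. It measured 1537 and 2094 CPM in KO cells at 8 and 2 months, against 2024 and 2019 CPM in WT cells at 8 and 2 months. The KO library at 8 months was low and the other 3 libraries were close to each other. KO over WT gave log2 folds of -0.40 at 8 months (-0.42 to -0.38) and 0.053 at 2 months (0.033 to 0.073). B2m is the shortest of the 10 genes, with 860 bases, and the 1068 genes under 1000 bases had a median log2 fold of -0.36 at 8 months. With the offsets its log2 fold at 8 months was -0.025.

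Ratios of counts within a library do not depend on the scaling between libraries. They can still carry the trend of the folds with gene length, and the ratios in this paragraph are without the offsets. B2m has 860 bases, H2-K1 1874 and Nlrc5 6945. The ratios outside the proteasome were chosen after their values were seen. H2-K1 had 1.34 and 1.26 reads per read of H2-D1 in KO cells at 8 and 2 months, against 1.33 and 1.30 in WT cells at 8 and 2 months. The ratio of the heavy chains thus spanned 1.06-fold over all libraries. H2-K1 had 1.83 and 1.28 reads per read of B2m in KO cells at 8 and 2 months, against 1.69 and 1.59 in WT cells at 8 and 2 months. It was highest and lowest in the KO libraries. Nlrc5 had 0.186 and 0.114 reads per read of H2-K1 in KO cells at 8 and 2 months, against 0.0671 and 0.0947 in WT cells at 8 and 2 months. The offsets moved the log2 fold of 8 over 2 months in KO from -0.45 to -0.014 for B2m and from 0.065 to 0.20 for H2-K1. For KO over WT at 8 months they moved it from 1.19 to 0.92 for Nlrc5 and from -0.29 to 0.0020 for H2-K1.

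Tap1 (ENSMUSG00000037321, chr17:34187553-34197225, plus strand) and Tap2 (ENSMUSG00000024339, chr17:34203527-34216321, plus strand) encode the subunits of the peptide transporter. Tap1 measured 543 and 723 CPM in KO cells at 8 and 2 months, against 683 and 829 CPM in WT cells at 8 and 2 months. It was lower in KO at both ages and lower at 8 months in both genotypes. Its log2 folds were -0.33 and -0.20 for KO over WT at 8 and 2 months, and -0.41 and -0.28 for 8 over 2 months in KO and WT. Tap2 measured 136.5 and 150.2 CPM in KO cells at 8 and 2 months, against 187.5 and 185.4 CPM in WT cells at 8 and 2 months. Tap2 had log2 folds of KO over WT of -0.46 at 8 months and -0.30 at 2 months. Both have between 3000 and 5000 bases, a class with a median log2 fold of 0.05 for KO over WT at 8 months. Their log2 folds with the offsets in that contrast were -0.36 for Tap1 and -0.46 for Tap2. Tap1 had 3.98 and 4.82 reads per read of Tap2 in KO cells at 8 and 2 months, against 3.64 and 4.47 in WT cells at 8 and 2 months, so this ratio was lower at 8 months in both genotypes. Tap1 and Psmb9 overlap over 212 bases on opposite strands, and the labels do not say whether reads were counted by strand.

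Tapbp (ENSMUSG00000024308, chr17:33915899-33929288, plus strand) encodes tapasin. It measured 305 and 405 CPM in KO cells at 8 and 2 months, against 519 and 448 CPM in WT cells at 8 and 2 months. The KO library at 8 months was lowest and the WT library at 8 months highest. Tapbp had a log2 fold of KO over WT of -0.76 at 8 months (-0.81 to -0.72) and -0.14 at 2 months (-0.19 to -0.10), and it was -0.70 at 8 months with the offsets. Tapbp and Psmb10 were the 2 genes at 1.5-fold or more lower in KO at 8 months, beside 18.5% of all genes. Tapbp overlaps Zbtb22, a zinc finger gene on the same strand, over 3421 bases. Zbtb22 itself had 531 to 772 counts per library, against 6979 to 10998 for Tapbp.

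Psmb8 (ENSMUSG00000024338, chr17:34197721-34201454, plus strand) encodes the immunoproteasome subunit with chymotrypsin-like activity. It measured 182.8 and 225.6 CPM in KO cells at 8 and 2 months, against 228.5 and 292 CPM in WT cells at 8 and 2 months. The log2 folds were -0.32 and -0.37 for KO over WT at 8 and 2 months, and -0.30 and -0.35 for 8 over 2 months in KO and WT, so KO and older libraries were lower throughout. With the offsets the value for KO over WT at 8 months was -0.029. Psmb9 (ENSMUSG00000096727, chr17:34181988-34187764, minus strand) takes the place of Psmb6 in the immunoproteasome. It measured 400.1 and 404 CPM in KO cells at 8 and 2 months, against 394 and 488 CPM in WT cells at 8 and 2 months. The WT library at 2 months was high and the other 3 differed little. Its log2 fold of KO over WT was 0.021 at 8 months (-0.022 to 0.064) and -0.27 at 2 months (-0.32 to -0.23).

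Psmb10 (ENSMUSG00000031897, chr8:105935728-105938392, minus strand) takes the place of Psmb7, the subunit with trypsin-like activity. It measured 66.3 and 144.8 CPM in KO cells at 8 and 2 months, against 172.2 and 172.9 CPM in WT cells at 8 and 2 months. The KO library at 8 months was far below the other 3. KO over WT gave a log2 fold of -1.37 at 8 months (-1.46 to -1.29), a level of 0.386-fold, and -0.26 at 2 months (-0.33 to -0.18). Within KO the log2 fold of 8 over 2 months was -1.12 (-1.22 to -1.03), and within WT it was -0.0059 (-0.071 to 0.059). Psmb10 was the only one of the 10 genes at 2-fold or more lower at 8 than at 2 months in KO, beside 4.71% of all genes. The 2298 genes of 1000 to 2000 bases, where it falls, had a median log2 fold of -0.30 for KO over WT at 8 months, and with the offsets Psmb10 stood at -1.01.

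**Figure D2:**
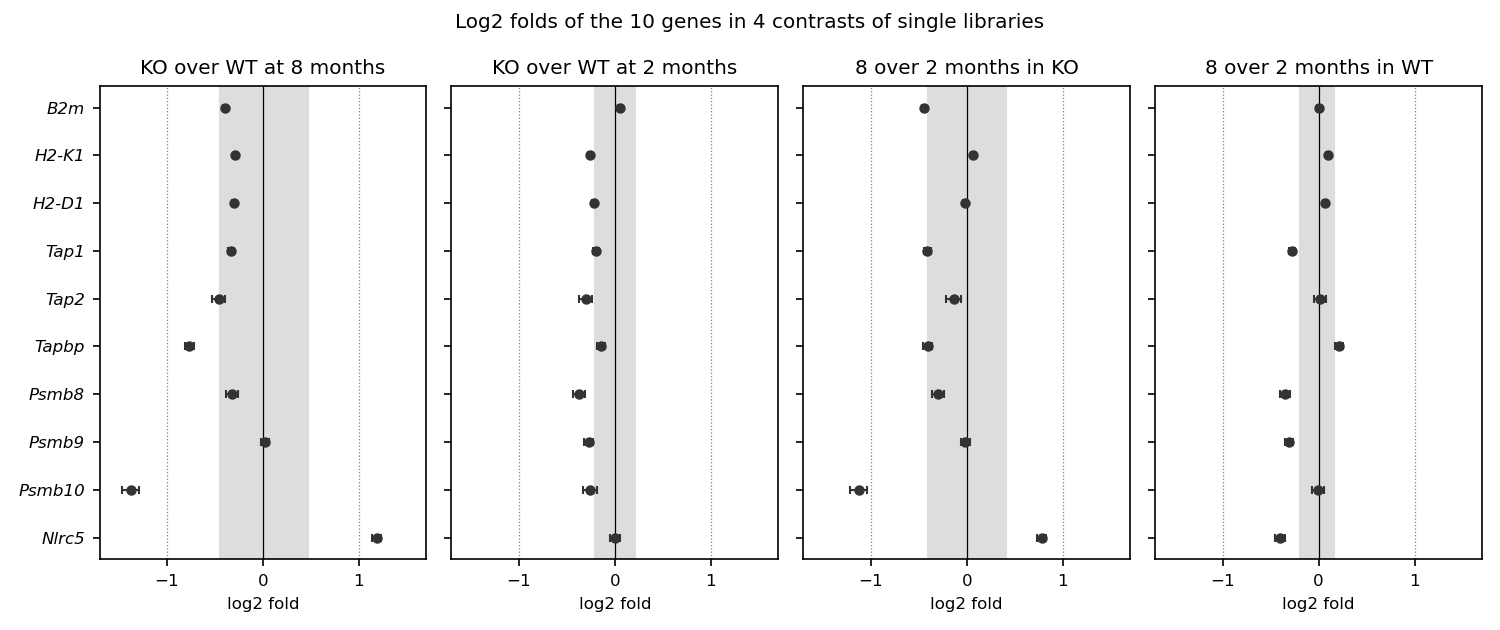
Log2 folds (horizontal axes) of the 10 genes in the 4 contrasts of single libraries, with 95% counting intervals. The grey band holds the middle of the distribution of all 12133 genes, between its quartiles, and dotted lines mark 2-fold. At 8 months Psmb10 at -1.37 and Nlrc5 at 1.19 lie outside the dotted lines, on opposite sides.

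Each immunoproteasome subunit was set against the constitutive subunit that it replaces. Psmb8 had 2.86 and 2.24 reads per read of Psmb5 in KO cells at 8 and 2 months, against 1.86 and 2.65 in WT cells at 8 and 2 months. Psmb9 had 5.82 and 3.95 reads per read of Psmb6 in KO cells at 8 and 2 months, against 3.31 and 3.99 in WT cells at 8 and 2 months. For both pairs the KO library at 8 months was highest and the WT library at 8 months lowest. With the length and GC offsets this order turned for Psmb8 over Psmb5, at 2.67 in KO cells at 8 months against 2.85 in WT cells at 2 months, the highest then. Psmb10 had 0.945 and 1.09 reads per read of Psmb7 in KO cells at 8 and 2 months, against 1.27 and 1.16 in WT cells at 8 and 2 months. The ratio of Psmb10 ran the other way, with the KO library at 8 months lowest. The constitutive subunits themselves had log2 folds of KO over WT at 8 months of -0.94 for Psmb5, -0.80 for Psmb6 and -0.95 for Psmb7. With TMM scaling, the higher ratios of the first 2 pairs came with lower levels of Psmb5 and Psmb6. Psmb8 was not higher in KO, and Psmb9 was at the WT level. Unlike the ratios, these levels depend on the scaling, and library size alone moves the median of all genes in this contrast to 0.24. With the offsets the log2 fold was 0.16 for Psmb9 and -0.029 for Psmb8. Psmb5 and Psmb6 have under 1000 bases, a class with a median of -0.36.

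**Figure D3:**
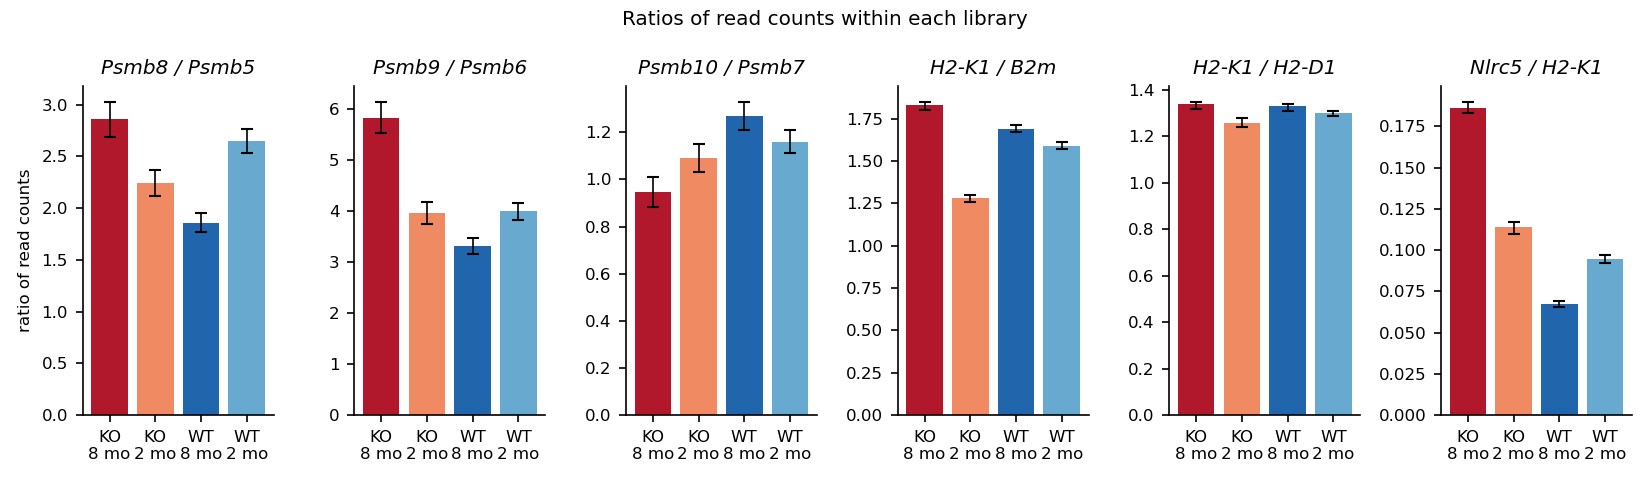
Ratios of read counts within each library (vertical axes from 0) for the 3 subunit pairs of the proteasome and for 3 pairs of class I genes. Bars are single libraries in the order KO at 8 and 2 months, WT at 8 and 2 months, and error bars are 95% counting intervals. Psmb9 over Psmb6 reaches 5.82 and Psmb10 over Psmb7 is lowest, at 0.945, in KO cells at 8 months.

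At 2 months the genotypes were closer. Of the 10 genes 8 were lower in KO, beside 51.1% of all genes, with a median log2 fold of -0.23 against -0.0091 over all genes. None was at 1.5-fold or more in either direction, beside 4.4% of all genes higher and 6% lower. The lowest value was -0.37, for Psmb8. Between ages in KO, 8 of 10 genes were lower at 8 months, beside 52.6% of all genes, with a median of -0.22 against -0.041. Scaling by library size alone moves the median of all genes in that contrast to 0.23, and 5 of 10 genes are then lower. Nlrc5 was the only one of the 10 at 1.5-fold or more higher at 8 months in KO, beside 19.3% of all genes. Between ages in WT, 5 of 10 were lower at 8 months, beside 52.9% of all genes, with a median of -0.0013, and none was at 1.5-fold or more, beside 7.18% of all genes higher and 6.68% lower. For B2m, H2-D1, Tapbp and Nlrc5, 4 of the 10 genes, a genotype or age contrast had opposite signs at the other age or in the other genotype beyond counting error, beside 25.2% of all genes. The KO library at 8 months was also set against the WT library at 2 months, a contrast chosen after the data were seen. Ages and Xist levels differ in it too. In it 9 of 10 genes were lower and Nlrc5 was higher, with a median of -0.42. The log2 folds in that contrast were -1.38 for Psmb10, -0.55 for Tapbp and 0.78 for Nlrc5.

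The additive test over all 4 libraries called none of the 10 genes for genotype or for age. With no replicates, each genotype is represented by its libraries of both ages and each age by both genotypes, which leaves 1 residual degree of freedom. Any difference of the genotype effect between ages is counted as spread in this model. Among the 10 genes that difference in log2 fold was largest for Nlrc5, at 1.18, and Psmb10, at -1.12. The lack of calls thus does not speak to an effect at 8 months alone. By edgeR's quasi-likelihood test with Benjamini-Hochberg adjustment over 13906 genes, 0.0288% of genes were called for genotype and 0.23% for age. Psmb10 had a log2 genotype effect of -0.81 ± 0.29 (SE), with an edgeR adjusted p of 0.556 and an unadjusted p of 0.0133. It was lower in KO at both ages, but with the length and GC offsets its log2 fold at 2 months was -0.0069. Psmb10 was the only one of the 10 under an unadjusted p of 0.05 for genotype, and none was for age. DESeq2 and limma-voom also called 0 of the 10 for either effect. Nlrc5 had a log2 genotype effect of 0.60 ± 0.34 (SE), with an edgeR adjusted p of 0.65. The edgeR adjusted p for genotype of the other 8 genes lay between 0.703 and 0.935, and for age all 10 lay between 0.687 and 0.99. Calls differed in fits of 3 libraries, in which the other factor had to be dropped too, so a library and that factor were left out together. Without the KO library at 2 months and without age, the edgeR test called Psmb10 for genotype (log2 effect -1.39, adjusted p = 0.0495), as it did 3.13% of genes. With age dropped and all 4 libraries kept, Psmb10 had an edgeR adjusted p of 0.73. Without the WT library at 8 months, which stands apart in its receptor segments, and without genotype, the edgeR test called 4 of the 10 genes for age, beside 23.4% of all genes. These were Psmb10 (log2 effect -1.27, adjusted p = 5.74e-06), Tap1 (-0.52, adjusted p = 0.017), B2m (-0.43, adjusted p = 0.0123) and Nlrc5 (0.77, adjusted p = 0.000634). In the first of these fits the KO library at 8 months is the only one of its genotype, and in the other the only one of its age. A single library is then set against the spread of the other 2, so library and group cannot be told apart. In the authors' deposited table, Psmb10 at 8 months was the only one of the 10 genes under an adjusted p of 0.05 in any of the 4 contrasts, with a log2 fold of -1.38 and an adjusted p of 0.0316, as were 3.98% of all genes in that contrast. This share is over all 35275 genes of the table, of which 13774 had no count in any library, so it is not on the scale of the other shares here. The adjusted p of Psmb10 sets 1 library against 1 and does not reach the adjusted p of 0.005 that goes with the authors' marks. The authors' deposited table gives Nlrc5 an adjusted p of 0.086 in the same contrast.

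**Figure D4:**
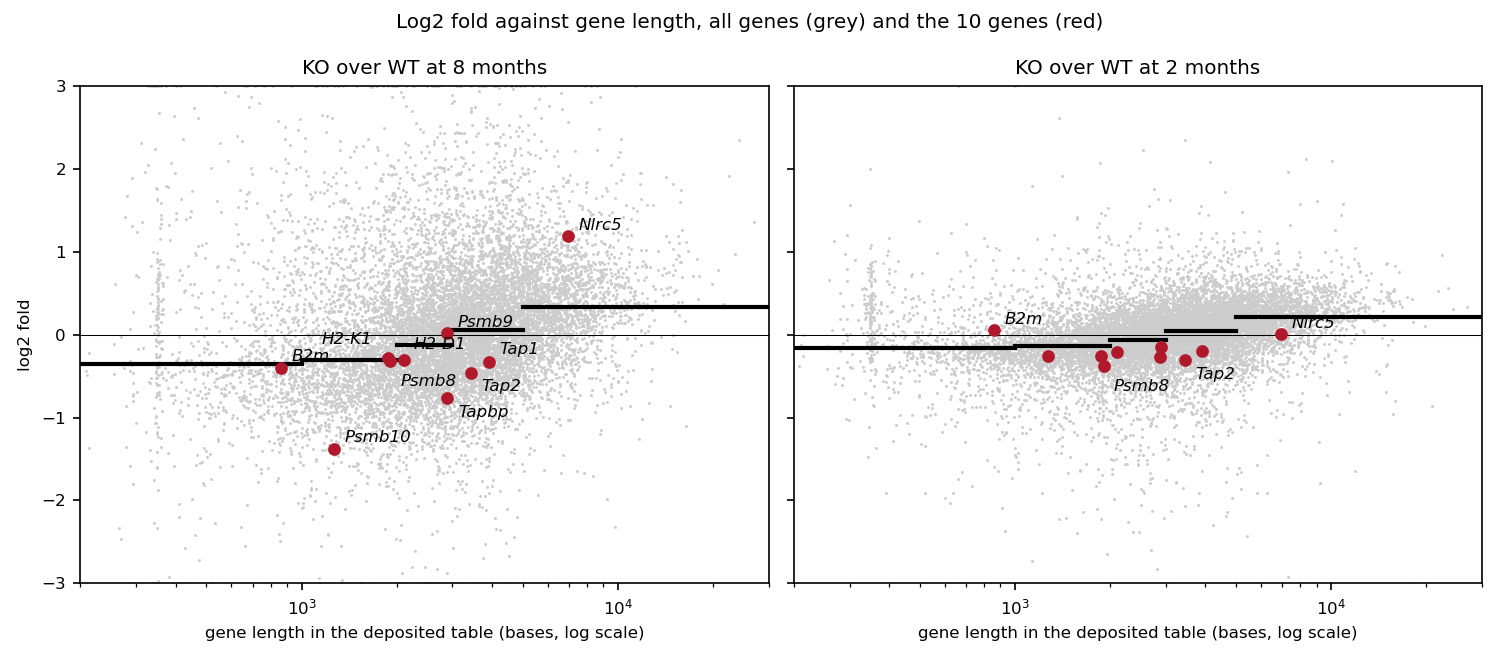
Log2 fold of KO over WT (vertical axes) against gene length in bases (horizontal axes, log scale), at 8 months on the left and 2 months on the right. Grey points are single genes, black lines the medians of length classes, and red points the 10 genes. The medians at 8 months go from -0.36 under 1000 bases to 0.33 at 5000 bases or more, with B2m near the line of its class and Psmb10 and Nlrc5 away from theirs.

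Genes that act beside the 10 were followed in pathway lists, and in none of these was a gene called by the edgeR test for genotype or age. Their folds are without the length and GC offsets, and the part of length in them was not tested. Over all 12133 genes, 50.3% were lower in KO at 8 months and 51.1% at 2 months. Between ages, 52.9% were lower at 8 months in WT and 52.6% in KO. Of the other class I heavy chain genes, 14 of 19 reached 2 CPM in a library. At 8 months 9 of the 14 were lower in KO, with a median log2 fold of -0.08, and at 2 months 12 of the 14, with a median of -0.30. H2-Q7, a nonclassical heavy chain gene, had 924 and 612 CPM in KO cells at 8 and 2 months, against 723 and 764 CPM in WT cells at 8 and 2 months. Mr1, which presents vitamin B metabolites to MAIT cells, had 28.9 and 23.9 CPM in KO cells at 8 and 2 months, against 13.3 and 18.5 CPM in WT cells at 8 and 2 months. Mr1 was thus higher in KO at both ages, with log2 folds of 1.11 and 0.37 at 8 and 2 months.

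The proteasome genes outside the immunoproteasome were lower in KO at 8 months as well. All 3 constitutive catalytic subunits were lower at both ages, with median log2 folds of -0.94 and -0.17 at 8 and 2 months. Of 5 genes of proteasome activators and assembly, 4 were lower at 8 months, with a median of -0.63, and the same number at 2 months, with a median of -0.20. Psme1, a subunit of the interferon-inducible PA28 activator, had 224 and 344 CPM in KO cells at 8 and 2 months, against 409.8 and 398 CPM in WT cells at 8 and 2 months. Pomp, the proteasome maturation protein, had 90.5 and 152.5 CPM in KO cells at 8 and 2 months, against 180.8 and 183.4 CPM in WT cells at 8 and 2 months. Psme4, which encodes the PA200 activator, was the exception, with log2 folds of 0.45 and 0.26 at 8 and 2 months. Gene length stands beside these values. Psmb5, Psmb6, Psme2 and Pomp have under 1000 bases, a class with a median of -0.36 at 8 months. Psmb7 and Psme1 have 1000 to 2000 bases, with a median of -0.30, and Psme3 has 2664, where the median was -0.13. Psme4 has 6491 bases and falls in the class of 5000 or more, with a median of 0.33.

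Of 12 genes of peptide supply and loading, 7 were lower in KO at 8 months, with a median log2 fold of -0.32, and 4 at 2 months, with a median of 0.07. The lectin chaperone Calr had 363 and 483 CPM in KO cells at 8 and 2 months, against 768 and 520.2 CPM in WT cells at 8 and 2 months. The chaperone Canx and the disulfide isomerase Pdia3 had log2 folds of -0.65 and -0.73 at 8 months, and 0.28 and 0.01 at 2 months. Lnpep, an aminopeptidase of endosomes, had 161.4 and 190.0 CPM in KO cells at 8 and 2 months, against 76.8 and 94.1 CPM in WT cells at 8 and 2 months. Lnpep was thus higher in KO by a similar log2 fold at both ages, 1.07 and 1.01, with an edgeR adjusted p for genotype of 0.267.

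Of 16 regulators of class I transcription, 9 were lower in KO at 8 months, with a median log2 fold of -0.09, and 9 at 2 months, with a median of -0.05. Stat2 and Irf1, transcription factors of interferon responses, had log2 folds of KO over WT of 1.03 and 0.57 at 8 months, and -0.04 and -0.11 at 2 months. As for Nlrc5, the KO library at 8 months was highest and the WT library at 8 months lowest for both. Rela and Nfyc went the other way, with log2 folds of -0.72 and -0.78 at 8 months. Ciita, the class II transactivator, had 42.8 and 48.6 CPM in KO cells at 8 and 2 months, against 116.1 and 43.0 CPM in WT cells at 8 and 2 months.

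Genes of the interferon gamma pathway followed the same order of libraries in part. The list of interferon gamma and its receptor pathway had 4 of 6 genes higher in KO at 8 months, with a median log2 fold of 0.65, and 3 of 6 at 2 months, with a median of -0.03. Ifng itself was low, with 4.62 and 1.51 CPM in KO cells at 8 and 2 months, against 0.661 and 2.05 CPM in WT cells at 8 and 2 months. Ifngr1, its ligand-binding receptor chain, had 341 and 226.6 CPM in KO cells at 8 and 2 months, against 126.1 and 222.6 CPM in WT cells at 8 and 2 months. Of 10 measured interferon gamma induced genes outside class I, 9 were higher in KO at 8 months, with a median of 0.76, and 3 at 2 months, with a median of -0.05. Between ages in WT all 10 were lower at 8 months, with a median of -1.06, and in KO 7 of 10 were, with a median of -0.11. Gbp4, an interferon-induced GTPase, had 584 and 427 CPM in KO cells at 8 and 2 months, against 181.6 and 398 CPM in WT cells at 8 and 2 months. For Gbp4 the WT library at 8 months was thus the low one, and it enters both KO over WT at 8 months and 8 over 2 months in WT. Gbp2 was lower in KO at 8 months, unlike the 9 genes above. It had 273.5 and 882.9 CPM in KO cells at 8 and 2 months, against 331.6 and 897.2 CPM in WT cells at 8 and 2 months.

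The 6 class II genes were all at 2-fold or more lower in KO at 8 months, beside 6.47% of all genes, with a median log2 fold of -1.23. All were lower at 2 months, with a median of -0.32. Cd74, the invariant chain, had 1840 and 2496 CPM in KO cells at 8 and 2 months, against 5499 and 3115 CPM in WT cells at 8 and 2 months. The 7 B cell markers had a median of -1.35 at 8 months and -0.21 at 2 months, and their part in the class II values was not tested. The 8 T cell markers had a median of -0.08 at 8 months and -0.02 at 2 months. Cd4 had 201.7 and 127 CPM in KO cells at 8 and 2 months, against 24.6 and 114.7 CPM in WT cells at 8 and 2 months. The CD8 genes Cd8a and Cd8b1 summed to 725 and 1019 CPM in KO cells at 8 and 2 months, against 1034 and 909 CPM in WT cells at 8 and 2 months.

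**Figure D5:**
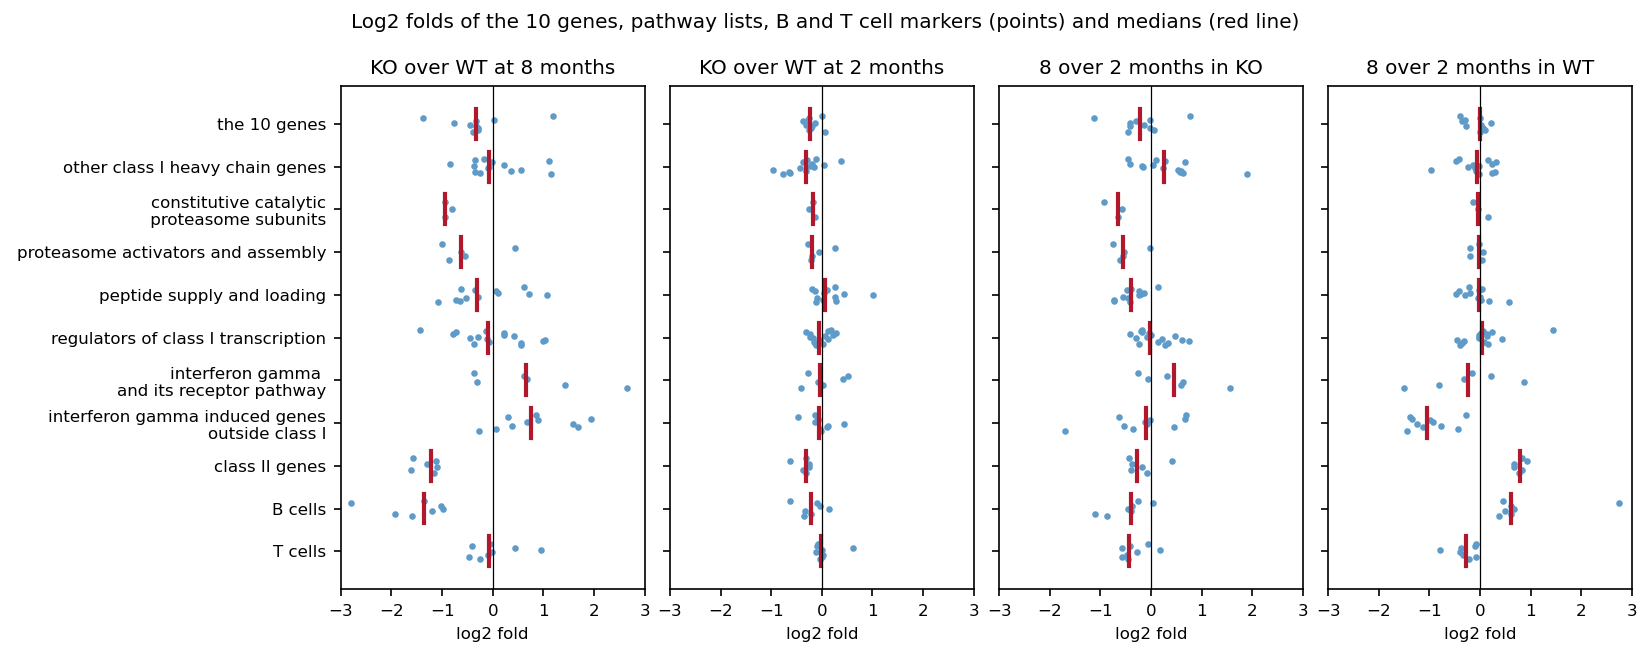
Log2 folds (horizontal axes) of the 10 genes, the pathway lists and the B and T cell markers in the 4 contrasts of single libraries. Blue points are genes and red lines medians. Among the groups drawn, the medians of KO over WT at 8 months run from -1.35 for B cell markers to 0.76 for interferon gamma induced genes outside class I, while at 2 months they lie between -0.32 and 0.07.

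The genes whose levels over the 4 libraries were most like the median profile of the 10 were Prcc, Rps10, Cactin, Chmp4b and Cpsf4. Likeness was the Euclidean distance between log2 levels centred on each gene's mean, over 7184 genes with a mean of 20 CPM or more, and these 5 lay between 0.027 and 0.033. Among the 10, Tap2 was nearest to the median profile, at 0.117, and Psmb10 at 0.804 and Nlrc5 at 1.18 were farthest, with 96.4% of other genes nearer than Nlrc5.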

How the data were processed

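RNA of activated splenic T cells was sequenced in 4 libraries, 1 per group by the labels. Per the submitters' processing notes, CASAVA, STAR, GRCm38 and mm10 were used. The sources used here do not give the counting tool, annotation or strandedness. Per the file headers, the deposited table holds raw counts per gene and FPKM values, which equal counts per length and library total within 1e-06. The authors' deposited log2 folds and adjusted p-values were used only where named. CPM levels and log2 folds were computed with TMM factors (edgeR 4.0.16, R 4.3.3) and a prior count of 2, and folds were compared with those of 12133 genes reaching 2 CPM in any library. Tests used edgeR quasi-likelihood with genotype and age as additive terms (15.4 prior degrees of freedom, biological coefficient of variation 0.267), adjusted by Benjamini-Hochberg at 0.05. P-values measure the spread between single libraries of different groups. A script that computes them was tested on simulated data with additive effects only, which does not cover genotype effects that differ by age. Intervals are exact at 95% (scipy 1.17.1). Offsets for length and GC share were fitted with mgcv 1.9.3, with GC from GENCODE M21 transcripts for 97.8% of genes. Alternatives were DESeq2 1.42.0, its size factors within edgeR, library size alone, other filters and prior counts, limma-voom (limma 3.58.1), the other factor dropped, the offsets and each library left out. There were 27 gene symbols turned into dates, restored by identifier. All 10 genes are named, and genes of the other lists are named for large or contrasting values. The genes and lists were chosen with earlier results of these data known, and Xist, Trbv14 and Zbtb22 were named after their values were seen. Some genes of the lists are not reported here by name.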

Additional observations from a re-analysis of the deposited data

Results flagged for a closer look

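For 4 of the 10 genes a contrast had opposite signs in its 2 settings, with counting intervals on either side of 0, beside 25.2% of all 12133 genes. The differences themselves were not tested, since each group has 1 library. B2m had log2 folds of KO over WT of -0.40 and 0.053 at 8 and 2 months, a difference of -0.45. The log2 fold of 8 over 2 months of Nlrc5 was 0.78 in KO and -0.40 in WT, a difference of 1.18. For Tapbp that age fold was -0.41 in KO and 0.21 in WT, a difference of -0.62, and for H2-D1 it was -0.021 in KO and 0.064 in WT, a difference of -0.085. Among all genes these differences lie at percentiles 23.7 for B2m, 91.1 for Nlrc5, 15.6 for Tapbp and 47.6 for H2-D1. With the length and GC offsets the age folds of H2-D1 were 0.036 in KO and 0.081 in WT, no longer opposite.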

How the results depend on the processing

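Genotype calls numbered 4 among all genes. They were 0 with library size alone, with the other factor dropped and with offsets for length and GC share (938, 804 and 539 genes at an unadjusted p under 0.05 by edgeR), 135 with no filter, 117 with a filter at a mean of 5 CPM, 18 by DESeq2 and 12 by limma-voom. Leaving out a library, with the other factor dropped too, gave 0 to 472 (0 without KO at 8 months, 472 without KO at 2 months, 2 without WT at 8 months, 114 without WT at 2 months), and 0 to 1 of the 10 genes.

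Age calls numbered 32. They were 20 with median-of-ratios factors, 0 with library size alone and with the other factor dropped (807 and 830 at an unadjusted p under 0.05 by edgeR), 199 with no filter, 137 with the 5 CPM filter, 60 by DESeq2, 55 by limma-voom and 6 with the offsets. Leaving out a library, again with the other factor dropped, gave 0 to 3447 (716 without KO at 8 months, 2 without KO at 2 months, 3447 without WT at 8 months, 0 without WT at 2 months), and 0 to 4 of the 10 genes.

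The median log2 fold of the 10 genes for KO over WT at 8 months was -0.08 with library size alone, -0.053 with the offsets (7 of 10 lower) and -0.42 with the WT library at 2 months in its place. For KO over WT at 2 months it was -0.11 with the offsets. For 8 over 2 months in KO it was 0.054 with library size alone and -0.083 with the offsets. Library size alone also moved the median of all genes by 0.24 at 8 months, and the share of 2-fold genes that were higher in KO to 81.5% from 61.7% with TMM. With the offsets, Psmb8 over Psmb5 was 2.67 in KO at 8 months and 2.85 in WT at 2 months, Psmb9 over Psmb6 was 4.88 in KO at 8 months, 3.51 in WT at 8 months and 4.41 in WT at 2 months, and Psmb10 over Psmb7 was 1.25 in KO at 2 months and 1.19 in WT at 8 months.

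None of the 10 genes passed the threshold with all libraries in the edgeR test, and some of their small effects turned direction. The genotype effect of B2m was 0.048 with the offsets and -0.40 to 0.054 with a library left out, and that of Psmb9 0.0049 and -0.27 to 0.021. The age effect was 0.069 for B2m with the offsets. For Tap2 it was 0.093 with library size alone and 0.0077 with the 5 CPM filter, and for Tapbp 0.057 with library size alone. With a library left out likewise, the age effects ranged from -0.078 to 0.22 for H2-K1, -0.14 to 0.17 for H2-D1, -0.31 to 0.16 for Tap2, -0.49 to 0.29 for Tapbp, -1.27 to 0.12 for Psmb10 and -0.40 to 0.77 for Nlrc5. The causes were not tested. No paired analysis was possible because each group has 1 library and the labels give no replicate numbers.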
